A study of Mus musculus with 6 samples.

Results

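Collagen prolyl and lysyl hydroxylases were followed in chondrocytes sorted from mouse cartilage at an embryonic and an adult stage. The members are 10 genes chosen by name and found by their Ensembl identifiers among the 22032 genes of the deposited matrix: the prolyl 4-hydroxylase alpha subunits *P4ha1*, *P4ha2* and *P4ha3*, their beta subunit *P4hb*, the prolyl 3-hydroxylases *P3h1*, *P3h2* and *P3h3*, and the lysyl hydroxylases *Plod1*, *Plod2* and *Plod3*. RNA-seq was available for 3 embryonic and 3 adult samples. The embryonic samples were labelled 16.5 wks, which the methods give as E16.5 embryos, and the adult samples were from animals 2 months old. In both groups LIN-ALP-BMPR1B+ cells were sorted, that is, cells without blood, endothelial or alkaline phosphatase surface staining that carry the BMP receptor BMPR1B. No allele or treatment was named for either group. Adult animals were male B6 mice per the methods, while the strain and sex of the embryos and the number of animals in each sample were not given in the sources used here. P-values therefore measure the spread between these samples, which may be partly technical, and stage cannot be told apart from strain or sex where these differed.

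Collagen chains are modified in the endoplasmic reticulum before they fold. Prolyl 4-hydroxylase is a tetramer of alpha subunits, which hold the active site, and beta subunits, which are the protein disulfide isomerase encoded by *P4hb*, and its product 4-hydroxyproline holds the triple helix together at body temperature. Prolyl 3-hydroxylases modify rare prolines, and lysyl hydroxylases make the hydroxylysines that carry sugars and form the cross-links of the mature fibre. All the catalytic members are dioxygenases that use iron, 2-oxoglutarate, oxygen and ascorbate. Cartilage is rich in type II, IX and XI collagen, all of which are substrates.

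Values are in TPM, the number of transcripts of a gene per 1000000 transcripts of the sample, scaled by gene length, so levels of different genes can be set side by side. Changes are adult minus embryonic on the log2(TPM + 1) scale with their standard error (SE) from limma, and a gene was called at a Benjamini-Hochberg adjusted p under 0.05 over the 13125 genes whose mean over the 6 samples reached 1 TPM. All 10 members passed that filter. Of them, 7 were called, 5 lower and 2 higher in adult cells, and the same number had values that did not overlap between the stages. Among all genes tested 45.3% were called, 21.4% lower and 23.9% higher, and 56.5% did not overlap. The median change of the members was -0.32, beside 0.16 for all genes tested. In bulk samples a lower level from fewer expressing cells and one from less RNA per cell cannot be told apart.

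The sorted cells carried the markers of chondrocytes, with all 8 listed genes detected in every sample. Their summed level, however, was 20837 to 21982 TPM in embryonic and 8726 to 11725 TPM in adult samples. *Col2a1* made up most of it in every embryonic sample (14154 to 15251 TPM). Among adult samples (3166 to 7084 TPM) it did so only in adult replicate 1. By limma 5 of the 8 were lower in adult cells (among them *Matn3*, at 181 to 234 and 1.11 to 3.65 TPM), *Comp* (553 to 606 and 1766 to 2662 TPM) and *Sox9* (392 to 465 and 589 to 901 TPM) were higher, and *Acan* (1018 to 1306 and 1265 to 2672 TPM) was not called. The 4 hypertrophic markers summed to 575 to 795 TPM in embryonic and 3325 to 5697 TPM in adult samples, mostly through *Spp1* (553 to 714 and 2368 to 4376 TPM). *Col10a1* and *Mmp13* were also higher in adult cells, whereas *Ihh*, not tested, was at 0.597 to 2.23 TPM in embryonic and listed at 0 in all adult samples. The 7 osteoblast markers summed to 47.6 to 78.1 and 270 to 469 TPM, mostly *Ibsp* in the adult (0.148 to 29.6 and 235 to 316 TPM), with *Bglap* and *Bglap2* at 0 in every embryonic sample. Of these markers 3 were called higher (*Ibsp*, *Bglap* and *Bglap2*), *Dmp1* was lower (10.1 to 16.3 and 0.061 to 3.51 TPM), and *Sp7*, *Phex* and *Runx2* were not called, for a median change of -0.54. Tendon and fibroblast markers (6 genes) summed to 801 to 1076 TPM in embryonic and 450 to 692 TPM in adult samples, with *Scx*, *Tnmd* and *Dpt* lower, *Thbs4* higher (179 to 272 and 242 to 394 TPM) and *Mkx* and *Pdgfra* not called. The 6 leukocyte markers summed to 5.31 to 13.7 and 19.0 to 103 TPM with *Cd3e* at 0 throughout, the 6 muscle markers to 16.8 to 24.7 and 0.870 to 14.8 TPM, the erythroid markers to 0.312 to 133 and 2.68 to 33.8 TPM, and the 5 endothelial markers to 10.9 to 33.3 and 3.79 to 13.0 TPM. The part of these shifts in the results on hydroxylases was not tested. Of the genes behind the sort, *Bmpr1b* had 16.4 to 20.3 TPM in embryonic and 4.51 to 18.5 TPM in adult samples (limma adjusted p = 0.199). *Alpl*, which encodes alkaline phosphatase, was higher in adult cells, at 14.4 to 17.9 and 32.7 to 38.6 TPM (log2 change 1.13, limma adjusted p = 0.00292).

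**Figure D1:**
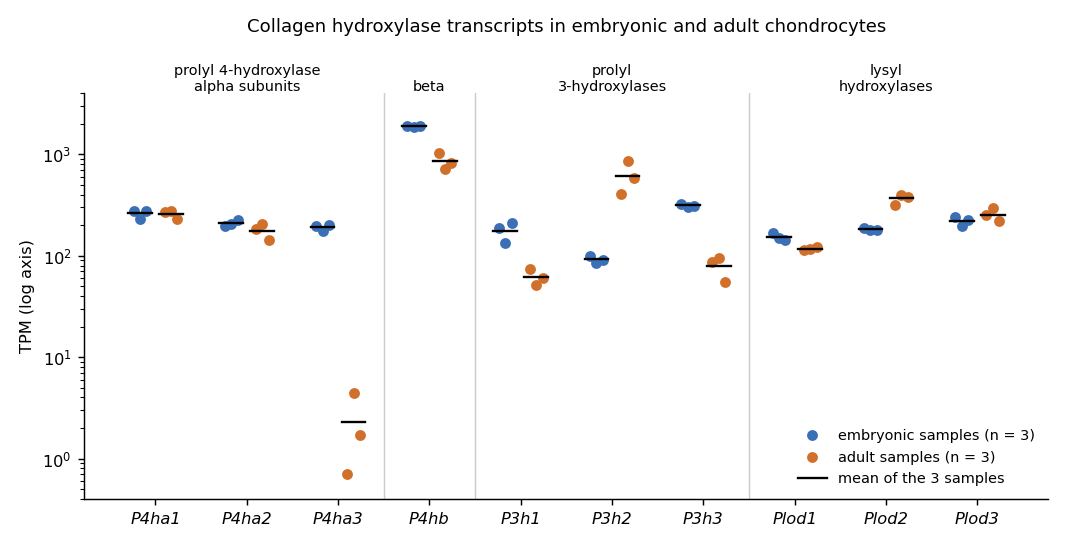
TPM of the 10 hydroxylase genes in each of the 3 embryonic and 3 adult samples on a log axis, grouped by enzyme class, with a black line at the mean of each stage. *P4ha3* drops from a mean of 192 to 2.29 TPM while *P4ha1* has 261 and 258 TPM, and *P3h2* and *Plod2* are the 2 genes whose adult points lie above all embryonic points.

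Levels spanned a wide range in each stage. By mean TPM the embryonic order was *P4hb* (1893), *P3h3* (313), *P4ha1* (261), *Plod3* (221), *P4ha2* (208), *P4ha3* (192), *Plod2* (184), *P3h1* (176), *Plod1* (154) and *P3h2* (92.0). The 7 genes from *P4ha1* to *Plod1* formed a run in which each gene overlapped the next over the 3 samples, whereas *P4hb* and *P3h3* lay above and *P3h2* below their neighbours in every sample. In adult cells the order was *P4hb* (856), *P3h2* (616), *Plod2* (367), *P4ha1* (258), *Plod3* (254), *P4ha2* (177), *Plod1* (117), *P3h3* (78.7), *P3h1* (61.5) and *P4ha3* (2.29). There, neighbours overlapped only between *P4hb* and *P3h2*, *P4ha1* and *Plod3*, and *P3h3* and *P3h1*. By mean *P3h2* moved from the last to the second place of the family, and from rank 2176 to rank 191 among all 22032 genes.

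The prolyl 4-hydroxylase alpha subunits split. *P4ha1*, the widely expressed isoform (chr10:59323296-59373304, plus strand, GRCm38), had 274, 232 and 277 TPM in the embryonic and 268, 275 and 231 TPM in the adult samples. These values overlapped throughout, and the change was -0.02 (SE 0.13, 95% interval -0.32 to 0.28, limma adjusted p = 0.921). *P4ha2*, an isoform known from chondrocytes and other skeletal cells (chr11:54100095-54131665, plus strand), had 195, 207 and 223 TPM in the embryonic and 183, 204 and 143 TPM in the adult samples. Its stages also overlapped, with a change of -0.25 (SE 0.15, interval -0.60 to 0.10, limma adjusted p = 0.214).

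*P4ha3*, the third isoform (chr7:100285520-100319699, plus strand), had 198, 177 and 200 TPM in the embryonic samples, about the level of *P4ha2*. In the adult samples it had 0.70, 4.47 and 1.69 TPM. The stages were far apart, with a mean of 192 ± 12.9 TPM (SD, n = 3) against 2.29 ± 1.95 TPM (SD, n = 3). The ratio of means was 83.8-fold. With 1 sample left out it ranged from 62.2-fold (without adult replicate 1) to 160-fold (without adult replicate 2). The log2 change was -6.04 (SE 0.39, limma adjusted p = 9.83e-06), and its rank among all genes went from 942 to 11576. Among the 13125 genes tested the change lay at percentile 0.328.

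As the alpha subunits share a reaction and differ in how they moved, the 250 bases before the RefSeq start of each were set side by side (GRCm38.p6, 5′ to 3′ on the strand of the gene). The windows of *P4ha1* and *P4ha3* end just before the gene spans given above. That of *P4ha2* lies inside its span, which starts at 54100095, so it precedes a start further downstream and the windows are not fully alike. Capitals mark each ACGTG or GCGTG on either strand (CACGT or CACGC when read on the other), the core letters of the element that hypoxia-inducible factors are known to bind, since *P4ha1* and *P4ha2* are textbook hypoxia-responsive genes.
*P4ha1*, chr10:59323046-59323295, plus strand: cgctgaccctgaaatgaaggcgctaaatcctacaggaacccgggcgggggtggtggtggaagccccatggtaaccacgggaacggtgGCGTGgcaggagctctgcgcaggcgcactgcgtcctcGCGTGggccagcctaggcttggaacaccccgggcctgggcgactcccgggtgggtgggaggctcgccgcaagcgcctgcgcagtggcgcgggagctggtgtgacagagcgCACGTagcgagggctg
*P4ha2*, chr11:54100674-54100923, plus strand: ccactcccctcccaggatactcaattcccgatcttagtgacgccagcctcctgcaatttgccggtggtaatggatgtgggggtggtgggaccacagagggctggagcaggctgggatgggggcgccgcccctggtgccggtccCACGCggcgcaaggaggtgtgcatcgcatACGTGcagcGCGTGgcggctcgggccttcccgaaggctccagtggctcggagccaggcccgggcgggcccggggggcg
*P4ha3*, chr7:100285270-100285519, plus strand: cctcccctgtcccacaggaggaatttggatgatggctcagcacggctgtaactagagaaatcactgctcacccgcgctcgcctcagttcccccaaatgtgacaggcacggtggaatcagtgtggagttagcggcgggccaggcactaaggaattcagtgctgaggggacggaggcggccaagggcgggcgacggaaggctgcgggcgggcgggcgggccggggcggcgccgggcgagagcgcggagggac
The windows of *P4ha1* and *P4ha2* each held 3 of these matches (1 ACGTG and 2 GCGTG), and the window of *P4ha3* held 0. One or the other was present in 12679 (38.6%) of 32851 RefSeq promoters of the same length. All 3 windows were rich in G and C, at 69.6%, 70.0% and 67.2%. GGGCGG on either strand, the letters of a GC box, occurred 1 time before *P4ha1*, 2 times before *P4ha2* and 5 times before *P4ha3*, and was present in 32.7% of all promoters. Among the other members with a window, *P4hb*, which fell, had 2, *P3h1*, which fell, had 2 in each of its 2 windows, and *P3h3*, which fell, had 0. *Plod1*, whose small fall was called, had 1, and *Plod3*, not called, had 4. No window was available for *P3h2* and *Plod2*, the members that rose, so no rising member was covered. These matches describe letters only, and no binding was measured here.

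Within the class, *P4ha1* went from 39.4 ± 1.71% of the summed alpha subunit TPM to 59.2 ± 2.29% (SD, n = 3 each), although its own level was not called as changed. By sample the share of *P4ha1* was 41.1%, 37.7% and 39.6% in the embryonic and 59.3%, 56.9% and 61.5% in the adult group. *P4ha2* made up 31.6 ± 2.18% and 40.3 ± 2.07%, and *P4ha3* 29.0 ± 0.578% and 0.510 ± 0.389%. The share of *P4ha1* did not overlap between stages, and an exact two-sided permutation test gave p = 0.1, the smallest value that 3 against 3 samples allow. The summed alpha subunits had 667, 615 and 701 TPM in the embryonic and 452, 483 and 375 TPM in the adult samples.

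*P4hb* (chr11:120560298-120573253, minus strand) was the most abundant member at both stages. It had 1886, 1878 and 1917 TPM in the embryonic and 1025, 715 and 828 TPM in the adult samples. All adult values were lower, by 2.21-fold in the ratio of means, with a change of -1.16 (SE 0.15, limma adjusted p = 0.000338). Its rank went from 54 to 132. Per TPM of alpha subunits, *P4hb* stood at 2.83, 3.05 and 2.73 in the embryonic and 2.27, 1.48 and 2.21 in the adult samples, a log2 difference of -0.56 (exact two-sided permutation p = 0.1, the smallest possible), or -0.36 without adult replicate 2. *P4hb* exceeded the summed alpha subunits in all 6 samples.

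The prolyl 3-hydroxylases changed in opposite directions, and each of the 3 was called. *P3h1* (chr4:119232915-119248975, plus strand), whose product works in a complex with CRTAP and cyclophilin B and is mutated in recessive osteogenesis imperfecta, had 187, 133 and 208 TPM in the embryonic and 73.4, 51.5 and 59.7 TPM in the adult samples. It fell in every adult sample relative to every embryonic one, by 2.86-fold in the ratio of means (log2 change -1.49, SE 0.20, limma adjusted p = 0.000523).

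*P3h3* (chr6:124841089-124857752, minus strand), known to act with P3H4 and lysyl hydroxylase 1, had 324, 305 and 311 TPM in the embryonic and 86.4, 95.2 and 54.5 TPM in the adult samples. The fall was 3.98-fold (log2 change -2.02, SE 0.20, limma adjusted p = 9.63e-05). It was the most abundant of the class in every embryonic sample.

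*P3h2* (chr16:25959288-26105784, minus strand), known for its action on basement membrane type IV collagen, had 99.6, 85.1 and 91.2 TPM in the embryonic and 408, 854 and 588 TPM in the adult samples. The rise was 6.70-fold (log2 change 2.67, SE 0.24, limma adjusted p = 5.35e-05), at percentile 97.4 of the changes of all genes tested. Adult replicate 2 had the highest *P3h2*, and the same sample had the lowest *P4hb*, *P3h1* and *Col2a1* of the group. Without it the change of *P3h2* was 2.40 (limma adjusted p = 9.57e-05). The type IV chains *Col4a1* and *Col4a2*, singled out after their values were seen, fell, from 223 to 239 and 178 to 191 TPM in embryonic to 54.9 to 147 and 56.0 to 112 TPM in adult samples (limma adjusted p = 0.00714 and 0.0023).

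The makeup of the class differed between the stages. *P3h3* held 54.1 ± 3.80%, *P3h1* 30.1 ± 4.36% and *P3h2* 15.8 ± 0.767% of the summed TPM in embryonic cells, against 10.8 ± 3.90%, 8.86 ± 3.91% and 80.3 ± 7.38% in adult cells (SD, n = 3 each). For *P3h1* the shares by sample were 30.7%, 25.4% and 34.1%, then 12.9%, 5.14% and 8.50%, which did not overlap (exact two-sided permutation p = 0.1, the smallest possible). The sum over the class did overlap, at 611, 524 and 610 TPM in the embryonic and 567, 1001 and 702 TPM in the adult samples.

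**Figure D2:**
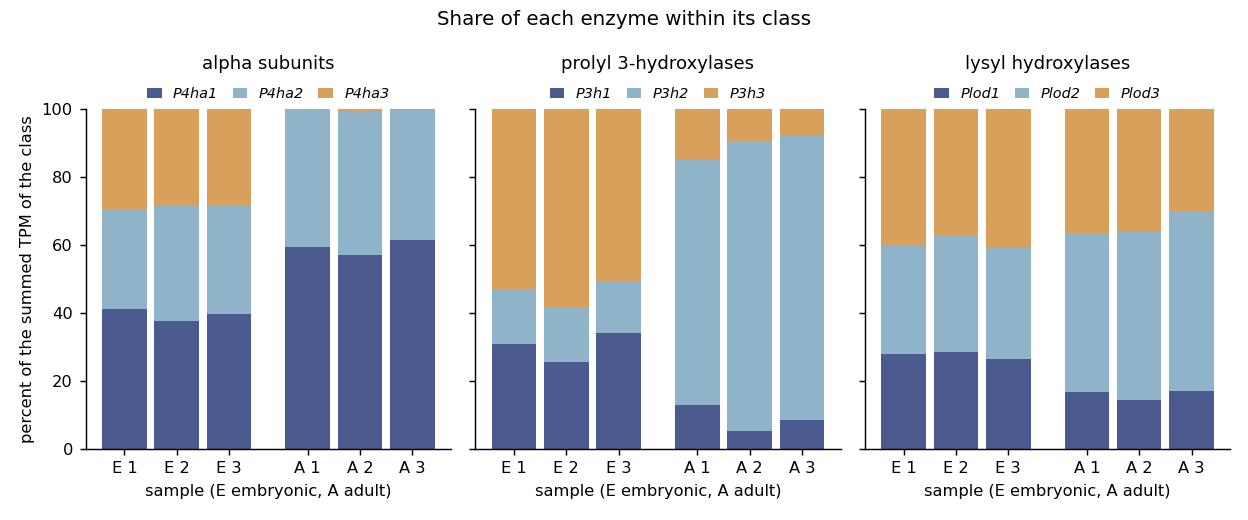
Stacked bars give the percent of the summed TPM of each enzyme class held by its 3 genes, in the 3 embryonic (E) and 3 adult (A) samples. The *P4ha3* share is 29.0% on average in embryonic and 0.510% in adult cells, *P3h2* goes from 15.8% to 80.3% of the prolyl 3-hydroxylases, and *Plod2* from 33.0% to 49.7% of the lysyl hydroxylases.

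Among lysyl hydroxylases *Plod2* (chr9:92542223-92608428, plus strand), the telopeptide lysyl hydroxylase that directs pyridinoline cross-links and is mutated in Bruck syndrome, had 189, 181 and 181 TPM in the embryonic and 319, 398 and 383 TPM in the adult samples. It rose 2.00-fold (log2 change 0.99, SE 0.13, limma adjusted p = 0.00036), with no overlap. *Plod1* (chr4:147909753-147936767, minus strand), which hydroxylates lysines of the helix and is mutated in the kyphoscoliotic form of Ehlers-Danlos syndrome, had 167, 149 and 144 TPM in the embryonic and 113, 116 and 123 TPM in the adult samples. The stages did not overlap, but the change was small at -0.39 (SE 0.13, limma adjusted p = 0.034). That call was lost without any 1 of embryonic replicates 1, 2 and 3 or adult replicates 1 and 2 (limma adjusted p = 0.122, 0.0696, 0.0611, 0.0654 and 0.0657) and held at 0.0405 without adult replicate 3.

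*Plod3* (chr5:136987019-136996648, plus strand), whose product also adds glucose to galactosylated hydroxylysine, had 242, 197 and 224 TPM in the embryonic and 251, 294 and 217 TPM in the adult samples. These overlapped, with a change of 0.20 (SE 0.15, interval -0.14 to 0.53, limma adjusted p = 0.309). The class as a whole had 598, 527 and 549 TPM in embryonic and 684, 808 and 723 TPM in adult samples. *Plod2* went from 31.6%, 34.3% and 33.0% of the class to 46.7%, 49.3% and 52.9% (exact two-sided permutation p = 0.1, the smallest possible), while *Plod1* went from 27.5 ± 1.08% to 16.0 ± 1.42% and *Plod3* from 39.5 ± 1.89% to 34.4 ± 3.72% (SD, n = 3 each).

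Overlapping genes touch 3 of these values, since the library kit of the methods is not stated to keep the strand. *Plod3* shares 529 exonic bases with *Znhit1* on the opposite strand, which had 16.6, 22.1 and 13.4 TPM in the embryonic and 66.7, 39.3 and 46.1 TPM in the adult samples. *Plod2* shares 346 with *Gm38391*, which was at 0.059 to 0.15 TPM in embryonic and at 3.06 to 3.65 TPM in adult samples. *P3h2* shares 1055 with the antisense gene *Gm4524*, not analysed here. How RSEM divided reads in these stretches cannot be seen in TPM, and its part in the results was not tested.

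Genes known to act beside the hydroxylases mostly fell. Of 15 listed partners and chaperones 14 were tested (*Mia3* was not analysed here). Of these, 12 were called, 8 lower and 4 higher in adult cells, with a median change of -0.63. The shares over all genes tested were 45.3% called, 21.4% lower and 23.9% higher, with a median change of 0.16. The companions of P3H1 both fell: *Crtap* had 267, 269 and 278 TPM in the embryonic and 149, 129 and 127 TPM in the adult samples (log2 change -1.01, limma adjusted p = 0.000274), and *Ppib*, which encodes cyclophilin B, had 880, 1001 and 1111 and then 630, 384 and 522 TPM (-0.98, adjusted p = 0.00291). *P3h4*, the partner of P3H3, fell from between 112 and 135 TPM to between 69.4 and 73.0 TPM (-0.77, limma adjusted p = 0.00228).

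*Fkbp10*, a prolyl isomerase that LH2, the product of *Plod2*, depends on and that is also mutated in Bruck syndrome, had 352, 377 and 362 TPM in the embryonic and 205, 163 and 124 TPM in the adult samples. It fell (-1.17, limma adjusted p = 0.000894) while *Plod2* rose. *Fkbp14*, a related isomerase (-1.27, limma adjusted p = 0.0042), *Serpinh1*, the collagen chaperone (-1.21, adjusted p = 0.000887), and *Sec23a*, a coat protein of vesicles that carry procollagen (-0.85, adjusted p = 0.0018), fell too. *Serpinh1* had 2216, 2221 and 2468 TPM, then 1328, 821 and 893 TPM, and so was more abundant than *P4hb* in each of the 6 samples.

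The galactosyltransferases that act on hydroxylysine diverged. *Colgalt2* had 19.4, 19.7 and 27.8 TPM in the embryonic and 48.2, 148 and 101 TPM in the adult samples, a rise of 1.98 on the log2 scale (limma adjusted p = 0.00272). *Colgalt1* had 117 to 143 TPM and 73.4 to 104 TPM (-0.49, limma adjusted p = 0.0441), a call that was lost in 5 of the 6 fits that left out 1 library (all but that without adult replicate 1; adjusted p 0.0526 to 0.146). Also higher in adult cells were *Tmem38b*, an endoplasmic reticulum ion channel mutated in osteogenesis imperfecta (1.47 to 3.32 and 9.42 to 24.5 TPM; 2.20, limma adjusted p = 0.00419), and *Sparc*, a collagen-binding glycoprotein (2465 to 2869 and 12744 to 14141 TPM; 2.34, adjusted p = 4.66e-06). *Mia2*, an export receptor gene, was at 95.7 to 114 and 122 to 172 TPM (0.45, limma adjusted p = 0.047), and its call was lost in 5 of the 6 such fits (all but that without adult replicate 1; adjusted p 0.0696 to 0.146). *Sec13* and *Sec24d* were not called (-0.19, interval -0.51 to 0.13, and -0.07, interval -0.48 to 0.33).

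**Figure D3:**
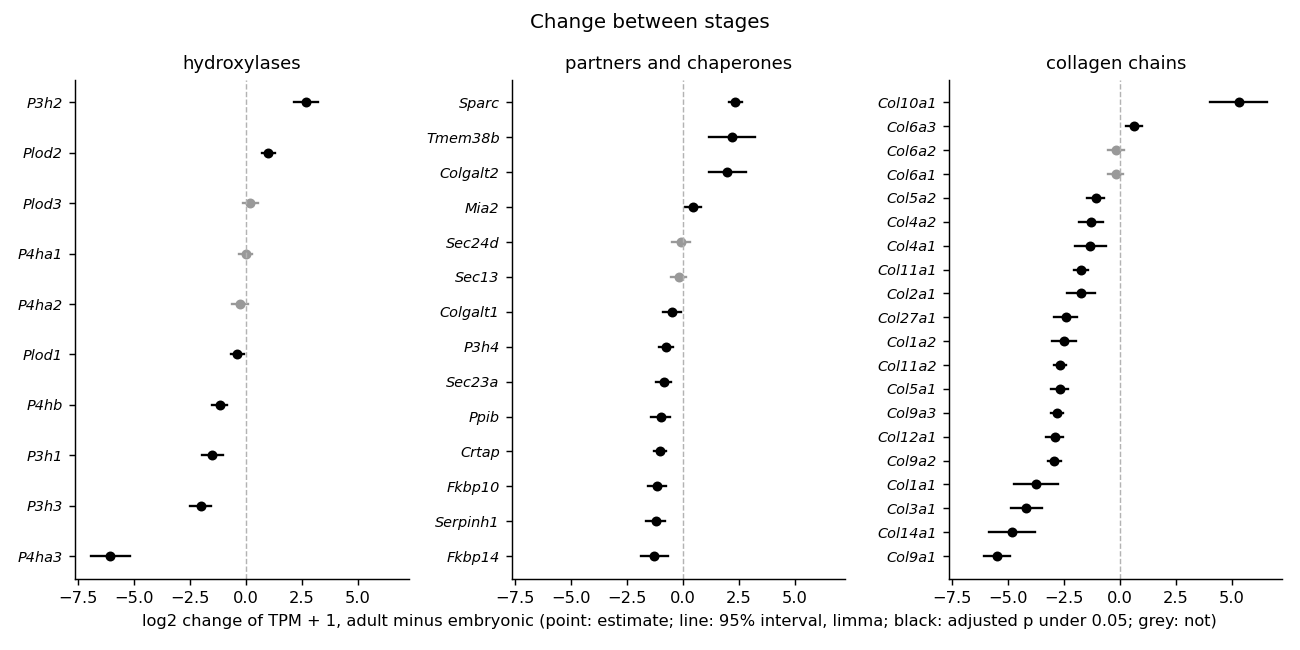
Log2 change of TPM + 1, adult minus embryonic, with 95% intervals from limma for the 10 hydroxylases, the 14 partners and chaperones tested and the 20 collagen chains. Black points were called at an adjusted p under 0.05 and grey ones were not, and the dashed line marks no change. The median is -0.32 for hydroxylases, -0.63 for partners and -2.46 for collagen chains.

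Most substrates fell. Of 20 collagen genes 18 were called, 16 lower and 2 higher in adult cells, with a median change of -2.46. Beside them, 45.3% of all genes tested were called, 21.4% lower and 23.9% higher, with a median change of 0.16. The largest falls were in *Col9a1* (1913 to 1946 TPM in embryonic and 27.2 to 64.2 TPM in adult samples, log2 change -5.48, limma adjusted p = 1.56e-06), *Col14a1* (-4.79, adjusted p = 7.17e-05) and *Col3a1* (-4.17, adjusted p = 1.92e-05). *Col2a1*, the main chain of cartilage, had 14662, 14154 and 15251 TPM and then 7084, 3166 and 3869 TPM (-1.73, limma adjusted p = 0.00107). *Col1a1* went from 4862 to 5971 TPM to 170 to 637 TPM (-3.75, limma adjusted p = 0.000221; -3.13 without adult replicate 1). Higher in adult cells were *Col10a1*, the hypertrophic chain (11.4 to 72.4 and 814 to 1096 TPM; 5.29, limma adjusted p = 0.000137; 6.09 without embryonic replicate 2), and *Col6a3* (0.63, adjusted p = 0.00958). *Col6a1* and *Col6a2*, at 1508 to 1682 TPM in embryonic and 1166 to 1732 TPM in adult samples, were not called (-0.19, interval -0.54 to 0.15, and -0.17, interval -0.51 to 0.17), although *Col6a1* was called without adult replicate 2 (limma adjusted p = 0.0437).

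Summed over the 20 chains, collagen transcripts had 46973, 44089 and 48564 TPM in the embryonic and 15910, 13773 and 13028 TPM in the adult samples, a 3.27-fold lower mean. The 9 catalytic hydroxylases together had 1876, 1666 and 1860 TPM and then 1703, 2291 and 1800 TPM, which overlapped. That overlap does not mean that the members held level. *P3h2* went from between 85.1 and 99.6 TPM to between 408 and 854 TPM and *Plod2* rose, while *P4ha3*, *P3h1*, *P3h3* and *Plod1* fell. The sum without *P3h2* was not tested. Per 100 TPM of collagen there were 3.99, 3.78 and 3.83 TPM of catalytic hydroxylases in the embryonic and 10.7, 16.6 and 13.8 TPM in the adult samples. The mean ratio was 3.55-fold higher in adult cells, a log2 difference of 1.80 (exact two-sided permutation p = 0.1, the smallest possible). By class the mean went from 1.42 to 3.08 for alpha subunits, from 1.25 to 5.41 for prolyl 3-hydroxylases and from 1.20 to 5.24 for lysyl hydroxylases, each per 100 TPM of collagen. These are ratios of transcripts, and neither enzyme activity nor hydroxylation was measured. The 5 ratios and shares with a permutation test formed 1 family, in which every adjusted p was 0.1.

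**Figure D4:**
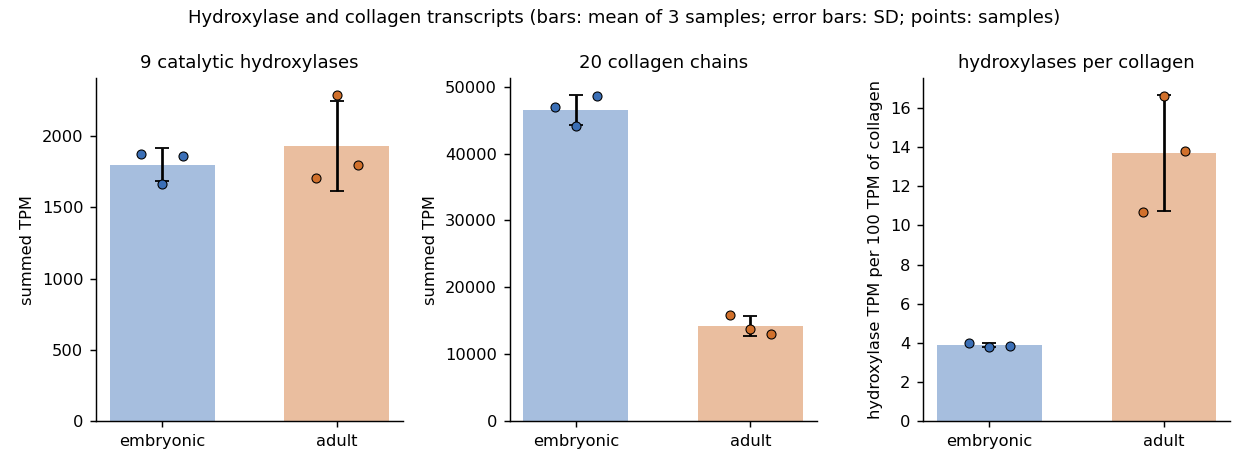
Summed TPM of the 9 catalytic hydroxylases, summed TPM of the 20 collagen chains, and the first per 100 TPM of the second, with bars at the mean, error bars of 1 SD and a point for each of 3 samples per stage. The hydroxylase sums, which include *P3h2* at a mean of 92.0 and then 616 TPM, overlap between stages. The collagen sums go from a mean of 46542 to 14237 TPM, and the ratio goes from 3.87 to 13.7.

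A list of other protein disulfide isomerases, the family of *P4hb*, also held the oxidases *Ero1a* and *Ero1b*. Of its 12 tested genes 5 were called, beside 45.3% of all genes tested. The 4 lower genes were all of the isomerase family, and the 1 higher was *Ero1b*. The median change, with both oxidases included, was 0.06 against -1.16 for *P4hb*. The difference between the list and *P4hb* was not tested. The count went to 2 without embryonic replicate 1, embryonic replicate 3 or adult replicate 2 and to 3 without embryonic replicate 2. *Pdia3* (-0.43, limma adjusted p = 0.0282), chosen after its values were seen, lost its call without any 1 of the embryonic samples or without adult replicate 2 (0.0613 to 0.0979). *Pdia5* had 54.5 to 60.7 and 14.3 to 28.0 TPM (-1.39, limma adjusted p = 0.00252), and *Txndc5* 314 to 338 and 111 to 146 TPM (-1.38, adjusted p = 9.7e-05). *Erp29* (-0.47, limma adjusted p = 0.0266) lost its call without any 1 of the embryonic samples or without adult replicate 2 (0.0543 to 0.082). *Ero1b*, the oxidase that recharges such isomerases, was at 0.726 to 2.24 and 4.59 to 5.83 TPM (1.36, limma adjusted p = 0.0315), and kept its call in 1 of 6 fits that left out a library, that without embryonic replicate 2 (0.0535 to 0.0984 in the others).

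Of 8 further 2-oxoglutarate hydroxylases outside the collagen family, 4 were called, 2 in each direction, beside 45.3% of all genes tested. *Egln1*, an oxygen-sensing prolyl hydroxylase of hypoxia-inducible factors, had 22.6, 30.4 and 24.5 TPM in the embryonic and 49.7, 47.3 and 44.1 TPM in the adult samples (0.85, limma adjusted p = 0.00714). *Egln2*, its paralogue, had 25.5 to 32.0 and 43.4 to 57.5 TPM (0.71, limma adjusted p = 0.017; lost at 0.0629 without embryonic replicate 3 and 0.0521 without adult replicate 1). Lower were *Asph*, an aspartyl hydroxylase (-0.74, limma adjusted p = 0.0196; lost at 0.0807 without embryonic replicate 2), and *Jmjd6*, a lysyl hydroxylase of nuclear proteins (-0.53, adjusted p = 0.0236; lost at 0.0523 to 0.0774 without any 1 embryonic sample or adult replicate 3). *Egln3*, *Hif1an*, *P4htm* and *Phyh* were not called. The count of 4 went to 2 without embryonic replicate 2 or embryonic replicate 3.

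Among hypoxia factors *Epas1*, which encodes HIF-2 alpha, rose from 29.8, 34.7 and 25.7 TPM to 133, 115 and 102 TPM (1.92, limma adjusted p = 6.88e-05), and *Hif1a* (356 to 374 and 242 to 384 TPM), *Arnt* and *Vhl* were not called, the last except without adult replicate 2 (adjusted p = 0.0239). Of 10 listed hypoxia target genes outside the hydroxylases, 3 were lower, 1 was higher and 6 were not called, beside 45.3% called among all genes tested. The 4 calls became 2 without embryonic replicate 3 and 5 without adult replicate 2 or adult replicate 3. They became 3 without embryonic replicate 1, embryonic replicate 2 or adult replicate 1. *Vegfa*, an angiogenic factor, had 1154, 996 and 1013 TPM and then 188, 260 and 302 TPM (-2.09, limma adjusted p = 3.82e-05). *Car9*, a carbonic anhydrase, was at 5.005 to 12.2 TPM in embryonic samples and at 1.13, 1.50 and a listed 0 TPM in adult samples (-2.28, limma adjusted p = 0.0079). *Ndrg1* fell by 0.53 (limma adjusted p = 0.0152; lost at 0.0503 and 0.0584 without embryonic replicates 2 and 3). *Bnip3*, a mitophagy gene, rose by 0.95 (limma adjusted p = 0.017; lost at 0.0671, 0.0662 and 0.0549 without embryonic replicates 1 and 3 and adult replicate 1). Among hydroxylases counted as hypoxia-responsive, *P4ha1* and *P4ha2* were not called and *Plod2* rose.

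For ascorbate, the cofactor of all these enzymes, the vitamin C transporter *Slc23a2* had 22.5, 20.4 and 27.4 TPM in the embryonic and 89.0, 133 and 99.7 TPM in the adult samples. It rose by 2.14 (SE 0.20, limma adjusted p = 7.77e-05), with no overlap. *Slc23a1*, the other transporter, was at 0.283 to 4.31 and 0 to 8.05 TPM and was not called, and *Gulo*, the last enzyme of ascorbate synthesis, was listed at 0 in 5 of 6 samples and was not tested.

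For 1 member of each catalytic class, the genes with the most similar pattern over the 6 samples were sought by the root mean square difference between log2 profiles centred on their own means. Nearest to *P4ha1* were *Tnpo3* (0.049), *Plrg1* (0.053) and *Susd5* (0.054), all with flat profiles. *P3h1* was closest to *Ptprs* (0.099), *Smc2* (0.10) and *Akap2* (0.12), and *Plod2* to *Runx1* (0.057), *Btg1* (0.057) and *Htra2* (0.062). The 6 points of each profile share 2 stages, so many genes with a like change between stages lie near.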

How the data were processed

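Reads were mapped by the authors to GRCm38, levels were estimated with RSEM (version not given in the sources used here), and the authors deposited log2(TPM + 1) per gene. The methods name RefSeq annotations, whereas the matrix has Ensembl identifiers, so the annotation behind the values is uncertain. All 6 columns were used and taken back to TPM, which sums to 1000000 per sample and does not carry depth, so precision rests on 3 samples per stage. The labels name a Kapa library kit and the methods a Nugen and Kapa workflow. Symbols and positions came from GENCODE M21, with 21902 identifiers matched and 130 not, and promoters from RefSeq (GRCm38.p6).

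The code of the fit was run on simulated data in which few genes changed and both stages had the same spread. That run does not cover data in which many genes change or the stages differ in spread. Changes were tested with limma 3.58.1 in R 4.3.3 (eBayes with trend, stage as the only term) on the deposited scale, whose pseudocount is 1, after dropping genes averaging under 1 TPM, at a Benjamini-Hochberg adjusted p under 0.05. Fold changes of genes at low TPM are understated on that scale. EBSeq, named in the methods, needs counts and was not used. Shares and ratios of TPM were compared by exact two-sided permutation tests. Alternatives were other scalings (quantile, median-of-ratios, without the 20 highest genes), pseudocount, filters, moderation, threshold, a replicate block and leaving out each sample (for counts of the smaller lists and ratios of means, this was chosen after seeing the data). All members and short lists could be named, and of collagens, disulfide isomerases and hypoxia targets the 3 largest called changes in each direction and any with a mean over 1000 TPM. Coding sequences were searched for near-identical copies with BLAST+ 2.17.0, and matches were found only with the overlapping genes *Znhit1* and *Gm38391*. The members and lists were chosen with earlier results of these data known.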

Additional observations from a re-analysis of the deposited data

How the results depend on the processing

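Over 16 alternatives 150 of 160 values of the 10 members stayed on the same side of the threshold, and the other 10 were all of *Plod1* (lost with quantile scaling at an adjusted p of 0.08, without the 20 highest genes at 0.0882, without the trend at 0.108, with the replicate block at 0.0852, at a threshold of 0.01 and when any 1 of 5 samples was left out). *P4ha1*, not called in any, ranged from -0.16 to 0.08. The median change of all genes was 0.16, and 0.03 under median-of-ratios scaling. At a threshold of 0.01, 3718 genes were called in place of 5949. The log2 ratio of catalytic hydroxylases to collagens, 1.80 as reported, was 2.10 after quantile scaling, 2.28 against fibrillar chains only and 1.23 from means of log2 values, and the cause was not tested. Leaving out 1 sample at a time gave 4604 to 5617 called genes, 6 to 7 members, 10 to 12 partners and 18 to 19 collagens.

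Over the genes tested, samples with the same replicate number did not deviate together (correlations of -0.009, -0.017 and -0.022). A pairing that is weak or limited to few genes would not show in such a correlation, so pairing was not excluded. With the replicate block 5430 genes, 6 members, 10 partners and 18 collagens were called.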
